A study of Mus musculus with 4 samples.

Results

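The 1035 processed pseudogenes described here are rows of a gene count table whose annotated type contains processed_pseudogene and not unprocessed, on the mouse autosomes. They were taken from 13614 rows in all, after 79 further processed pseudogenes on chromosome X had been left out. Of the 1035, 983 were typed processed_pseudogene and 52 transcribed_processed_pseudogene. The table listed genes above a low level only: the scarcest member had 26 counts over the 4 libraries, and processed pseudogenes below the deposited table's level were not analysed here. No further filter was applied, so all 1035 listed members were tested.

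A processed pseudogene arises when a messenger RNA is copied back into DNA and inserted elsewhere in the genome, so it starts out as an intronless copy of its parent gene without the parent's promoter. Genes with abundant, short messenger RNAs, such as those of the ribosomal proteins, have left many such copies in mammalian genomes. Because a recent copy is nearly identical to its parent, a short sequencing read may match both places equally well, and the counts of the pair then depend on how such reads were assigned. Most copies carry stop codons or frameshifts, while some keep the parent's whole reading frame.

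The libraries were made from fetal liver cells of mice at embryonic day 14.5 to 16.5, a stage at which the liver is rich in blood stem and progenitor cells. All 4 carried a retrovirus, MSCV-MLL-AF9-IRES-GFP, which expresses the leukemia fusion oncogene MLL-AF9 together with the green fluorescent protein by which the transduced cells were sorted. Wild type (Prl2+/+) and Prl2 knockout (Prl2-/-) cells gave 2 libraries each. Prl2 is the older name of Ptp4a2, the gene of a small protein tyrosine phosphatase, and the labels leave unsaid where it is deleted and whether the libraries of a genotype came from separate embryos or cultures. P-values therefore measure the spread between these libraries, and a change in RNA per cell cannot be told apart from a change in the mixture of cells.

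Counts are given as wild type replicates 1 and 2 against knockout replicates 1 and 2. Library totals ran from 14625725 to 15422309 counts. Ptp4a2 had 4884 and 5105 wild type counts and 89 and 104 knockout counts, and each library matched its label. All 9 fixed markers of blood and myeloid progenitors were listed, with summed levels of 4286 and 7773 CPM (counts scaled to library size with TMM factors) for the wild type and 4594 and 3235 CPM for the knockout. Of 6 red-cell markers 4 were listed, and they summed to 13.2 and 7.95 CPM against 1.70 and 2.44, lower in both knockout libraries. All 3 macrophage markers summed to 445 to 724 CPM, and none of the 3 T-cell markers was listed. Hnf4a was the sole listed hepatocyte marker of 5, at 156 and 8.42 CPM against 48.2 and 113. Pecam1, the sole listed endothelial marker of 3, was at 393 and 202 CPM against 207 and 309. Xist, the RNA of the inactive X chromosome, had 11147 and 9 wild type counts against 3 and 12 knockout counts, and the Y-linked Ddx3y had 12 and 1271 against 1320 and 1173. Wild type replicate 1 thus stood apart from the other 3 libraries in these sex-linked genes, and the part of this in the results below was not tested.

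Each member was paired with a parent in 2 ways. The name gave one for 151 members (for example Rps10-ps1 and Rps10) with 112 parents. The stems of another 17 such names were not rows of the table as protein-coding genes. An alignment to the protein-coding transcripts of GENCODE M21 gave a parent for 1030 members, 1016 of them with 1 of 710 parents in the table, and it picked the named parent in 148 of the 151 cases. Eef1a1 had 17 copies, Gapdh 13, Rpsa 12 and Rps2 11, while 569 parents had 1. The median identity of copy and parent was 96.7% (quartiles 93.3% and 98.9%), and 55 copies were identical to the parent over the aligned stretch. The longest open reading frame reached the parent's length in 232 of 1030 copies and stayed under 50% of it in 447. By position, 718 members lay between genes (69.4%), 128 in introns on the same strand, 149 in introns on the opposite strand, and 40 overlapped an exon of another gene.

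The sequences on which the results turn are given first, from the GENCODE M21 transcripts of the mm10 genome. Each line is a stretch within the parent's coding sequence, 5′ to 3′. Capitals in a copy mark bases that differ from the parent, and capitals in a parent mark bases at which a copy shown with it differs. Gm13422, at chr2:23235323-23235622 on the plus strand, is shown with coding bases 88 to 387 of Ptp4a2, because it had no count in either knockout library:
Gm13422: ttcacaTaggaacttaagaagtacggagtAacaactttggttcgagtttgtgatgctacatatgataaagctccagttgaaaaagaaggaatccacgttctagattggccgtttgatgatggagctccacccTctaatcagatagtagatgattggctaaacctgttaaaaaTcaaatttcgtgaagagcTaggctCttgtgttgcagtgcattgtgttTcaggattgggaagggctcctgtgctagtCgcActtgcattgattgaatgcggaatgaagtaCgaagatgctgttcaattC
Ptp4a2: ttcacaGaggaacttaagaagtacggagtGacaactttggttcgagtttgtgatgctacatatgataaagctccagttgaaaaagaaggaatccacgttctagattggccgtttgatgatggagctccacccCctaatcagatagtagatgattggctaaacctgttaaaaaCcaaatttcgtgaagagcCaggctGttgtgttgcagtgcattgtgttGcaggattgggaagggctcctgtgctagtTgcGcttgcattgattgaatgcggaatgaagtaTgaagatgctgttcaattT
Across the 501 coding bases this pair differed at 14. The first capital in Gm13422 makes the only in-frame stop codon, at codon 32 of 167.

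Copies of Hdac1 and Rbbp4, which lie close to Ptp4a2, are shown because some of them had more counts in both knockout libraries. Gm4864 (chr12:77623771-77623890, minus strand) and Gm10093 (chr17:78492691-78492810, plus strand) are set against a stretch of Hdac1, and Gm48609 (chr13:97014931-97015080, minus strand) against bases 1048 to 1197 of Rbbp4:
Gm4864: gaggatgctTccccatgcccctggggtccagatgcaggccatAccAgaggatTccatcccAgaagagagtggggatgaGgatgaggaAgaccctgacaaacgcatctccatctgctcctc
Gm10093: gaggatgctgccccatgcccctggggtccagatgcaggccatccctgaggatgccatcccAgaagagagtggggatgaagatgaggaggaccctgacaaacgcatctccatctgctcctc
Hdac1: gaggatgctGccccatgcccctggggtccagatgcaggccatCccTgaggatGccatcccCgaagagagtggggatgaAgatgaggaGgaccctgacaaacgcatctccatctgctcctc
Gm48609: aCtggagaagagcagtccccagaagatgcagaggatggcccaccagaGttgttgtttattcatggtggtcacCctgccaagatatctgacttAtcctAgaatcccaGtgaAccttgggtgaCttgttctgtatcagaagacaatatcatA
Rbbp4: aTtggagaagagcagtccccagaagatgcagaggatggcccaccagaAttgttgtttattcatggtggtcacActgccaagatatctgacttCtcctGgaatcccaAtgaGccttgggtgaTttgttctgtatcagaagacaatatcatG
Gm4864 differed from Hdac1 at 7 of these 120 bases and Gm10093 at 1.

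The copies of Rplp0 and Rps15a are shown because their counts differed between libraries of the same genotype. A stretch of Rplp0 is aligned with Gm8730 (chr8:102865335-102865424, minus strand), Gm9625 (chr13:67810620-67810709, plus strand), Gm14165 (chr2:152353987-152354076, plus strand) and Rplp0-ps1 (chr3:93278515-93278604, plus strand). A stretch of Rps15a is aligned with Rps15a-ps8 (chr4:53791103-53791192, minus strand) and Gm26983 (chr1:7136234-7136323, minus strand):
Gm8730: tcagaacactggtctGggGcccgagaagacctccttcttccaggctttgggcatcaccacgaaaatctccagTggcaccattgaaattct
Gm9625: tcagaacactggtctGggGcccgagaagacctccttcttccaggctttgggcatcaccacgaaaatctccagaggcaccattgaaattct
Gm14165: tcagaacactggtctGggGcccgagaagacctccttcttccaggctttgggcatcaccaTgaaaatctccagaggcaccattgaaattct
Rplp0-ps1: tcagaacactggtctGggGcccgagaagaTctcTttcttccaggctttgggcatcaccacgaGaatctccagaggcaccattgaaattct
Rplp0: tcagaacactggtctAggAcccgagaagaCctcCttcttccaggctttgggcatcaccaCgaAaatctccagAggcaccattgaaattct
Rps15a-ps8: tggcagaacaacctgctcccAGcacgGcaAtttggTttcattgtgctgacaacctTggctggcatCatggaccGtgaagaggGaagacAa
Gm26983: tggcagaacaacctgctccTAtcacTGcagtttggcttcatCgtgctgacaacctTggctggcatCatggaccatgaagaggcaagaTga
Rps15a: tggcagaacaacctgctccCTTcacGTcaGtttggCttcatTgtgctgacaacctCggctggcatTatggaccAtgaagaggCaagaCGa
All 4 Rplp0 copies shown carry the same G at both of the first capital positions.

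Finally, Rps10-ps1 (chr3:95622334-95622513, plus strand) and Gm9794 (chr6:66875491-66875640, minus strand) are shown because their level per kb exceeded that of Rps10 and Rpl23. They stand against coding bases 57 to 236 of Rps10 and 104 to 253 of Rpl23:
Rps10-ps1: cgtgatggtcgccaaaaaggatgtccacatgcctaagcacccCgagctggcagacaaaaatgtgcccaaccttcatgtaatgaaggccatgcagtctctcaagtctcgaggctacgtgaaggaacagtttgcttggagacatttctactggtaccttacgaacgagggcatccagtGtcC
Rps10: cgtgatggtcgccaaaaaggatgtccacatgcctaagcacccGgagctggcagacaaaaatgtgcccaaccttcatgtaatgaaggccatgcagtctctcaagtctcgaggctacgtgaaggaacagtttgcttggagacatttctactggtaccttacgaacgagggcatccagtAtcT
Gm9794: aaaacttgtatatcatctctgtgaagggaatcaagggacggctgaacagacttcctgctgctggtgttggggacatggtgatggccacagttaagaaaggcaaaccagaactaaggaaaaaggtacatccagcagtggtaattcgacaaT
Rpl23: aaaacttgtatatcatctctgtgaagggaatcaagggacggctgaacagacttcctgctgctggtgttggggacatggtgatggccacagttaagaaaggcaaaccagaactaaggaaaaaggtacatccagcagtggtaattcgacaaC
The single coding difference of Gm9794 from Rpl23, its last base here, makes a stop at codon 85 of 140. Rps10-ps1 has 6 coding differences, no in-frame stop and all 165 codons.

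Processed pseudogenes took less than 1% of all counts in each library. They held 0.771% and 0.757% of the wild type counts and 0.697% and 0.711% of the knockout counts. Both knockout values lay below both wild type values. The means were 0.764% ± 0.0105 and 0.704% ± 0.00972 (SD, n = 2 each), and the exact two-sided permutation test gave p = 0.333, the smallest value that 2 libraries against 2 can give. Copies of ribosomal protein genes went from 0.314% and 0.291% to 0.226% and 0.235%, and all other copies from 0.458% and 0.465% to 0.471% and 0.475%. The copies of Rpsa, also a ribosomal protein gene, were counted with the other copies. The 10 most abundant members held 21.1% of the members' summed CPM and the 50 most abundant held 48.5%.

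The median level of the members, as CPM per kb of the deposited gene length, was 2.92 (quartiles 1.32 and 7.94), against 8.02 for protein-coding genes. At the top stood Gm9794, a copy of Rpl23 (a protein of the large ribosomal subunit), at 685 CPM per kb. It had 5158 and 4569 wild type counts and 3753 and 3959 knockout counts. Rpl23 itself had 1965 and 1852 against 1604 and 1685. In all 4 libraries the copy was thus listed above its parent, and its level per kb was 10.3 times that of Rpl23. Next came Gm12328, a 96.0% identical copy of the ubiquitin gene Ubb, at 635 CPM per kb. Gm14303, the Rps29 copy, stood at 584 CPM per kb, with 1833 and 1681 counts against 1191 and 1296, whereas Rps29 had 73 and 85 against 82 and 68. Its level was 79.1 times that of Rps29, with which it shares every 100-base word.

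The other 7 of the 10 highest members per kb were copies of genes for ribosomal proteins, a histone and a growth-related protein. Gm4332, a copy of Rps20, reached 317 CPM per kb, Rpl14-ps1 271, Rps15a-ps4 270 and Rpl38-ps2 259. Gm8942, a copy of Rps24, followed at 225, Gm6421, a copy of the histone H3.3 gene H3f3a, at 220.4, and Tpt1-ps3, a copy of the translationally controlled tumor protein gene, at 219.9. All 10 were above their parents per kb, by 1.34 times (Tpt1-ps3) to 79.1 times (Gm14303). In CPM not divided by length, Gm9794, Gm14303 and Rpl38-ps2 alone of the 10 were above the parent.

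By counts, the 10 most abundant members paired by name were Rpl14-ps1, Rps15a-ps4, Tpt1-ps3, Cd63-ps, Rpl10a-ps1, Rpl38-ps2, Rps10-ps1, Impdh2-ps, Gpx4-ps2 and Anp32b-ps1. Rps10-ps1, a copy of a small-subunit protein gene, had 1018 and 795 wild type counts against 512 and 562 knockout counts, and Rps10 had 108 and 110 against 73 and 60. The copy was 38.4 times its parent per kb and both were lower in each knockout library than in each wild type library. Impdh2-ps kept all 514 codons of Impdh2, an enzyme of guanine nucleotide synthesis, and stood at 31.3 CPM per kb against 10.1 for the parent. Gpx4-ps2, a copy of the lipid peroxide-reducing enzyme gene Gpx4, had 694 and 860 counts against 531 and 551, and Gpx4 had 682 and 847 against 554 and 638. Anp32b-ps1, at 90.6% identity the most diverged of these 10, was at 0.188 times the level of Anp32b.

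The level of a copy relative to its parent went with how much sequence the pair shares. Over the 151 pairs by name the median log2 ratio of copy to parent, in CPM per kb, was -1.74, and 39 copies lay above the parent. Over the 1016 pairs by sequence it was -2.81, with 133 copies above the parent (13.1%). Among the 111 pairs at up to 90% identity the median log2 ratio was -4.68, and it was -4.06 over 90% to 95%, -3.17 to 97%, -2.08 to 99%, -1.10 above 99%, and 0.99 for the 54 identical pairs. In that last class 33 copies lay above their parents (61.1%). The parents' own median level ran the other way, from 52.8 CPM per kb in the lowest class to 7.34 in the identical class, while the copies' median went from 1.58 to 11.5. As a description over 1016 pairs, many of which share a parent, Spearman's rho of identity and log2 ratio was 0.53. All these ratios depend on the deposited lengths, with a median of 731 bp for members and 4493 bp for protein-coding genes. Without division by length the median log2 ratio over the pairs by name was -4.03. The identity classes were not computed without it, so copies above parents there hold per kb only.

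**Figure D1:**
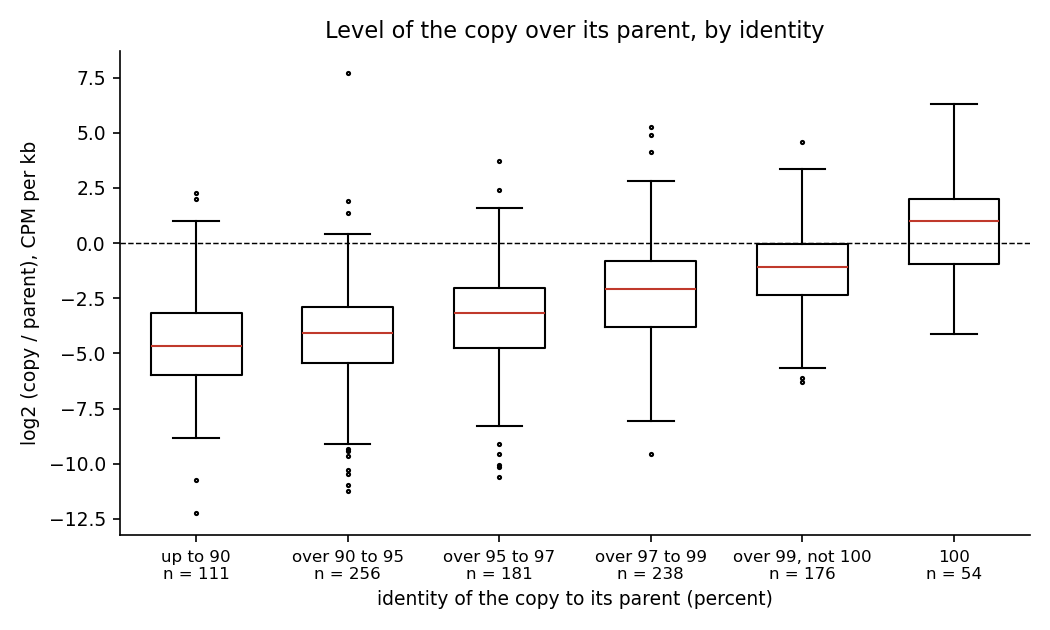
Log2 ratio of the level of each copy to that of its parent by sequence (both in CPM per kb, mean of 4 libraries), in 6 classes of identity. Boxes show the quartiles and the median, whiskers reach 1.5 interquartile ranges, and points lie beyond. The median climbs from -4.68 at up to 90% identity to 0.99 for the 54 identical pairs, with the dashed line at equal levels.

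Among ribosomal protein genes, those with more coding sequence shared with processed pseudogenes were mostly listed at a lower level. For each of 76 such genes, the share of its coding 100-base words that also occur in an annotated processed pseudogene was set against its level per kb. The 25 genes with every word shared had a median of 7.43 CPM per kb (range 0.743 to 89.3). The 27 genes with 50% or more shared were at a median of 54.9 (2.17 to 276), the 13 with 10% to 50% at 109 (46.9 to 1222), and the 11 with under 10% at 512 (23.4 to 1699). Spearman's rho over the 76 genes was -0.77, and it lay between -0.77 and -0.76 in each library taken alone. Both are descriptions across genes, without a test.

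Single genes show the span. Rpl23a, at 5 and 9 counts against 12 and 12, and Rpl24, at 15 and 22 against 13 and 17, had the lowest levels per kb of the 76, and every coding word of both is shared with a copy. Rps6, the substrate of the S6 kinases, had 75 and 65 counts against 41 and 33, and its identical copy Rps6-ps4 had 318 and 273 against 253 and 285. Rplp1, a protein of the ribosomal stalk, was at 1699 CPM per kb with 6.58% of its words shared, and Rpl4 at 1375 with 6.39%. In 27 of the 76 genes at least 1 copy stood above the parent per kb. That count depends on the deposited lengths. Rps15a, at 6270 bp, had a mean of 240 CPM, and its copy Rps15a-ps4, at 502 bp, had 135. Against this order, Rpl13a was at 23.4 CPM per kb with 1.96% shared, and Rps16 and Rpl38 were at 89.3 and 77.8 with all shared. The sources used here do not give the read length or the treatment of reads that match several places, so the 100-base word is a yardstick and not the length that was mapped, and the part of read assignment in these levels was not tested.

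**Figure D2:**
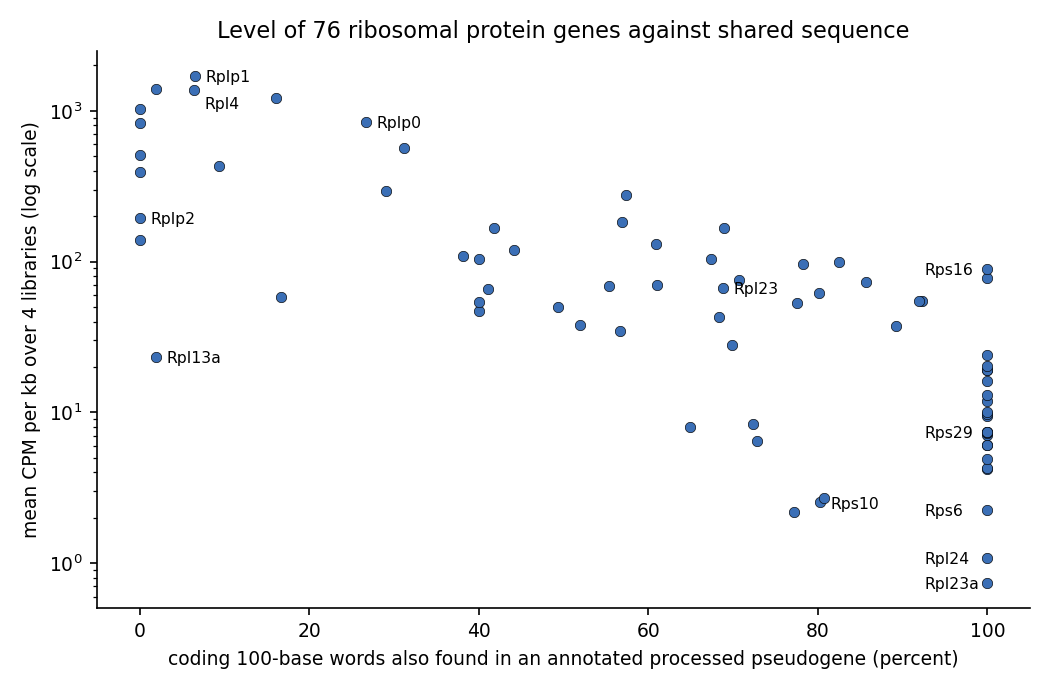
Mean level of 76 ribosomal protein genes over 4 libraries (CPM per kb, log scale) against the percent of their coding 100-base words that also occur in an annotated processed pseudogene. Each point is a gene. Genes at 100% lie between 0.743 and 89.3 CPM per kb, and those under 10% between 23.4 and 1699.

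A few diverged copies were also above their parents. Of 367 copies at 95% identity or less, 12 were, and they are named here after their values were seen. Gm38158, a copy of the chromatin protein gene Hmga2, lies in an intron of Sdccag8 on the same strand and stood at 24.2 CPM per kb, with 156 and 95 counts against 101 and 141, while Hmga2 had 14 and 5 against 15 and 13. Bambi-ps1, at 88.6% identity to the TGF-beta pseudoreceptor gene Bambi, stood at 26.4 CPM per kb against 5.48, with 161 and 286 counts against 199 and 294. Neither copy separated the genotypes.

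Between the genotypes, no processed pseudogene was called by the quasi-likelihood test of edgeR at an adjusted p of 0.05 or less. That test called 0.00735% of all genes tested, which is Ptp4a2 alone, and the smallest adjusted p among the 1035 members was 0.474. At an unadjusted p under 0.05 it listed 17 members as higher in the knockout (1.64%, against 5.66% of all genes) and 34 as lower (3.29%, against 4.23%). The likelihood ratio test of edgeR called 6 members (0.58%), with 0.477% of all genes called. DESeq2 called 6 of the 896 members it gave an adjusted p (0.67%), and 0.688% of the 13086 genes it gave one. The authors' deposited table lists 6 members (0.58%) at an adjusted p of 0.05 or less, and 0.477% of all its genes. These were Gm13422, AC125456.1, Gm48609, Gm4864, Gm18147 and Gm12350, the same 6 as in the likelihood ratio test. DESeq2's 6 hold the first 4 of them, with Gm4332 and Rps10-ps1 in place of the last pair.

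The genotypes did not overlap in 215 members that were higher in the knockout (20.8%) and 247 that were lower (23.9%). Over all genes the shares were 22.2% and 21.9%, so the members' shares lay near the background. The median log2 fold change was -0.02 over the members and -0.01 over all 13614 genes.

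Gm13422, the sole listed copy of Ptp4a2, had counts in the wild type libraries alone. It had 81 and 50 wild type counts and 0 in both knockout libraries. Its wild type mean was 4.39 ± 1.45 CPM (SD, n = 2), and against a floor of 3 counts per library it was at least 22.3-fold lower in the knockout. The unadjusted p was 0.000239 and the adjusted p 0.474 by edgeR's quasi-likelihood test, while the authors' deposited table lists it at an adjusted p of 3.64e-11. Ptp4a2 fell 52.8-fold, with log2 fold change -5.72 (SE 0.14, adjusted p = 0.000429 by the same test), and kept 1.89% of its wild type level. In the wild type libraries the copy had 1.66% and 0.979% of the parent's counts, and both knockout libraries together held 193 counts of Ptp4a2. Gm13422 lies in an intron of 4931423N10Rik on chromosome 2, and Ptp4a2 on chromosome 4 (chr4:129811219-129850003). It shares 16.5% of its 50-base words and 0.741% of its 100-base words with Ptp4a2.

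Some copies of Hdac1, a histone deacetylase gene at -0.295 Mb from the start of Ptp4a2 on chromosome 4, were higher in the knockout while Hdac1 was lower. Gm4864 had 18 and 26 counts against 88 and 144 (log2 fold change 2.36, SE 0.40, 95% interval 1.36 to 3.36, adjusted p = 0.474 by the quasi-likelihood test). AC125456.1 had 2 and 7 against 73 and 122 (4.37, SE 0.62, interval 2.84 to 5.91). Hdac1 itself had 651 and 638 counts against 458 and 247 (-0.90, SE 0.30, adjusted p = 0.490). The genotypes did not overlap for any of these 3, and knockout replicate 2 had the highest counts of both copies and the lowest of the parent. The remaining copy, Gm10093, is 99.4% identical to Hdac1 and had 195 and 218 against 207 and 193.

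Counted together, Hdac1 and its 3 copies differed less between genotypes than Hdac1 alone. The summed counts were 866 and 889 against 826 and 706. The copies' part of the sum was 24.8% and 28.2% for the wild type libraries and 44.6% and 65.0% for the knockout (Wilson 95% intervals 22.1% to 27.8%, 25.4% to 31.3%, 41.2% to 48.0% and 61.4% to 68.4%). On the log2 scale the change of the mean CPM was -0.90 for Hdac1 and -0.23 for the sum. Gm4864 and AC125456.1 share 16 bases that differ from the Hdac1 coding sequence, and 12 of these are not in Gm10093, which has 9 differences in all. Leaving out each library in turn gave log2 fold changes of 1.96 to 2.68 for Gm4864 and 3.73 to 5.50 for AC125456.1. The part of read assignment between gene and copy in this was not tested.

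Rbbp4, which encodes a histone-binding partner of such deacetylases, lies at -0.504 Mb from Ptp4a2 and also had a copy with more knockout counts. Gm48609 had 3 and 6 counts against 54 and 87 (log2 fold change 3.90, SE 0.54, interval 2.57 to 5.24, adjusted p = 0.474 by the quasi-likelihood test). Rbbp4 had 6101 and 6194 against 7865 and 7608 (0.30, SE 0.10), so the parent too was higher in both knockout libraries. The copy's counts are small beside the parent's, and the sum of Rbbp4 and its 3 copies differed by 0.32 on the log2 scale. Gm7200 had 14 and 8 counts against 27 and 20, and Gm4800 138 and 134 against 200 and 166, all higher in the knockout libraries. Gm48609 shares no 50-base word with Rbbp4.

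In all, 19 members have a parent within 5 Mb of Ptp4a2, a window chosen after these values were seen. They stem from 11 parents. Among the 19, the genotypes did not overlap in 10 that were higher and 2 that were lower, where 44.6% of all members did not overlap. Of the 19, 4 had an unadjusted p under 0.05 by the quasi-likelihood test, against 4.93% of all members. These 4 were Gm13422, Gm4864, AC125456.1 and Gm48609, the copies described above, whose values were seen before the window was chosen. They are also among those without overlap, so neither share is a test of the window. Zbtb8os, between Rbbp4 and Hdac1, had the copy Gm8539 with 17 and 9 counts against 24 and 33. Away from that stretch, Nudc-ps1 had 206 and 224 against 236 and 202, and Gm11223, a copy of the microtubule regulator gene Stmn1, 86 and 72 against 78 and 61. The protein-coding genes listed in the window, 129 of them, had a median log2 fold change of 0.01.

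**Figure D3:**
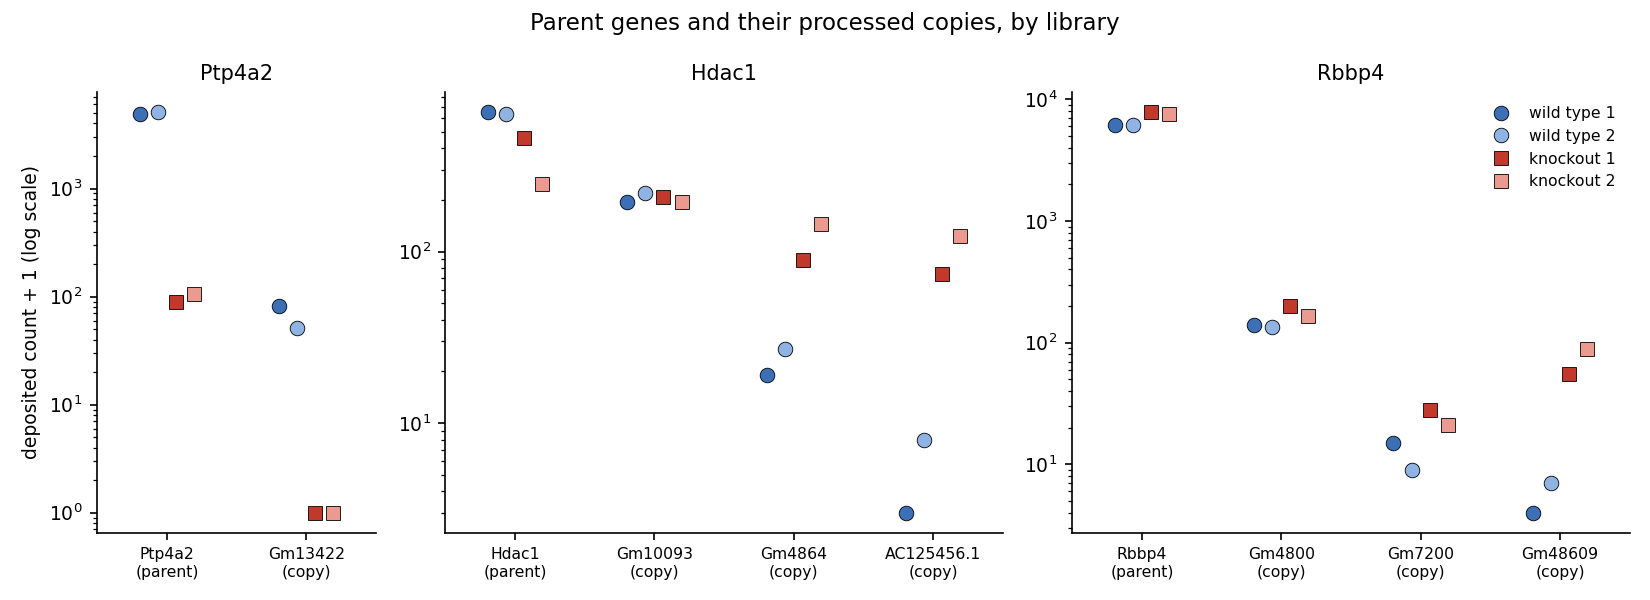
Deposited counts plus 1 (log scale) in each library for Ptp4a2, Hdac1 and Rbbp4 and for their processed copies, with circles for the wild type and squares for the knockout. Gm13422 stands at 81 and 50 wild type counts and at 0 in both knockout libraries, whereas Gm4864, AC125456.1 and Gm48609 are higher in both knockout libraries.

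Of the 6 members in the authors' list, the remaining 2 were scarce. Gm18147, a 91.4% identical copy of Rpl17 in an intron of Cpb2, had 10 and 15 counts against 0 and 1, while Rpl17 had 110 and 114 against 62 and 105. Gm12350, a copy of the mitochondrial protein gene Chchd2 with the whole frame of 153 codons, had 37 and 15 counts against 3 and 3, and Chchd2 had 1078 and 1040 against 889 and 888. The authors' deposited table gives adjusted p-values of 0.0104 and 0.0346 for these 2 copies, where the quasi-likelihood test gives 0.474 for both.

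Across the pairs, a copy's difference between genotypes followed that of its parent in part. Over the 1016 pairs by sequence Pearson's r of the log2 fold changes was 0.47 and Spearman's rho 0.40, and 661 pairs had the same sign. In the class over 97% to 99% identity, which holds Gm13422 and Ptp4a2, r was 0.73. It was 0.22 to 0.42 in the other classes, whereas rho was 0.37 to 0.44 in every class. Among the 183 pairs whose copy had a mean of 8 CPM or more, rho was 0.60 and 132 pairs had the same sign. Between the replicates of a genotype the same 183 pairs gave a rho of 0.47 (wild type) and 0.32 (knockout). The 548 pairs at 97% identity or less, where the median copy was far below its parent, had a rho of 0.39. Between the replicates of a genotype these 548 pairs gave 0.29 (wild type) and 0.11 (knockout). These are descriptions across genes of 4 shared libraries.

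The median difference of copy minus parent in log2 fold change was 0.06 over the 151 pairs by name (quartiles -0.18 and 0.28) and 0.08 over the 1016 pairs by sequence. The first was 0.18 with the length trend removed and 0.113 without wild type replicate 1. Copies stood furthest above their parents, among named pairs at a mean log2 CPM of at least 1, in Mrpl48-ps (1.06), Rpsa-ps1 (0.82), Ccnb1-ps (0.80), Rps6-ps4 (0.78) and Rpsa-ps8 (0.69). Mrpl48-ps had 74 and 61 counts against 87 and 105, while Mrpl48, a mitochondrial ribosomal protein gene, had 514 and 630 against 268 and 514. Ccnb1-ps, a copy of the mitotic cyclin B1 gene, had 13 and 24 against 48 and 31, and Ccnb1 had 475 and 421 against 595 and 495. At the other end stood Rplp0-ps1 (-3.03), Gstm2-ps1 (-1.14), Trmt112-ps2 (-0.56) and Rps26-ps1 (-0.39). By sequence Gstm2-ps1 was closest to Gstm1, not Gstm2, and against Gstm1 its difference was 0.10. The log2 fold change of Rplp0-ps1, -2.99, was -0.31 without wild type replicate 2.

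**Figure D4:**
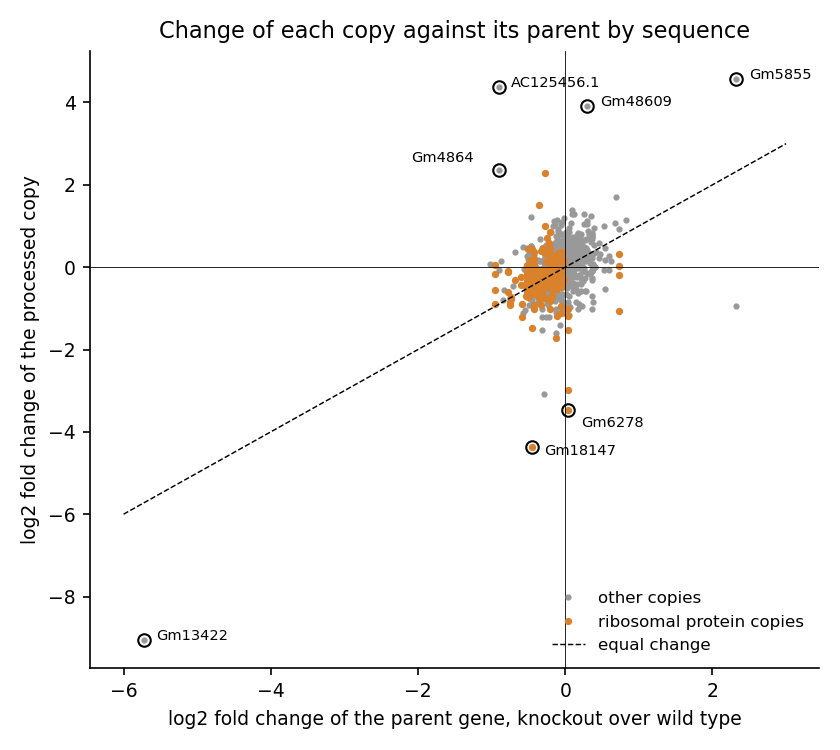
Log2 fold change (knockout over wild type) of each copy against that of its parent by sequence, 1016 pairs, with equal change on the dashed line. Copies of ribosomal protein genes other than Rpsa are in orange. Most points cluster near the origin, with Gm13422 at the lower left and AC125456.1, Gm48609, Gm4864 and Gm5855 at the top.

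Beyond those already described, the rule on size named further copies without overlap of the genotypes. Higher in the knockout were Gm15285, a copy of the electron transfer flavoprotein gene Etfa (17 and 18 counts against 47 and 35), Gm3325, a copy of the zinc finger gene Zfp808 (80 and 57 against 137 and 119), and Gm8514, a copy of Arhgap1 (17 and 34 against 47 and 47). Etfa and Arhgap1 had log2 fold changes of -0.02 and 0.05, where the copies had 1.19 and 0.85. The value of Gm8514 was 0.42 without wild type replicate 1 and 1.43 without replicate 2. Lower were Gm6440 (72 and 49 against 28 and 33, a copy of Rps20) and Gm20568 (122 and 87 against 62 and 51, of Rps28). None passed the adjusted threshold.

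Copies of ribosomal protein genes were mostly lower in the knockout, as were the parents. Of 204 copies of 72 parents (symbols with Rpl or Rps and a number, or Rplp), 160 had a negative log2 fold change and 44 a positive one, with a median of -0.32 against -0.02 for all members and -0.01 for all genes. In 94 both knockout libraries lay below both wild type libraries and in 9 above, and at an unadjusted p under 0.05 there were 27 lower and 0 higher. Over all genes, 21.9% were lower and 22.2% higher without overlap, and 4.23% lower and 5.66% higher at that p. The parents of these copies had a median of -0.33. Gm14303 had a log2 fold change of -0.53 (SE 0.11), Gm4332 -0.56 (SE 0.11), Gm9794 -0.36 (SE 0.11) and Rps10-ps1 -0.78 (SE 0.16), each with an adjusted p of 0.474 by the quasi-likelihood test. Of the 12 copies of Rpsa, which the symbol pattern left out, 10 were negative (median -0.43, from -0.91 to 0.32).

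Values by gene length are set beside this difference, and the part of length in it was not tested. The ribosomal protein copies had a median length of 536 bases. Short protein-coding genes, 354 of them with a median of 868 bases, had a median log2 fold change of -0.20, against 0.00 for all protein-coding genes. Ribosomal protein genes were not left out of that set. The 831 members outside the symbol pattern, the 12 Rpsa copies among them, had a median length of 820 bases. Their median log2 fold change was 0.05 (459 positive and 372 negative). With the trend on gene length removed, the median of the ribosomal protein copies was -0.16 and that of all members 0.11. Without wild type replicate 1 the copies' median was -0.20, and without replicate 2 it was -0.44. The red-cell markers given above were also lower in both knockout libraries, and their part in this was not tested.

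Other groups of parents had medians nearer to 0 before the trend on gene length was removed. After it, the copies of high mobility group and histone genes were at 0.29 and those of cytoskeletal genes at 0.25. Of 28 copies of genes of mitochondrial energy production (respiratory chain and ATP synthase), 24 were negative, with a median of -0.17, and their parents had a median of -0.20. Without overlap 8 of the 28 were lower and 0 higher, against 21.9% and 22.2% of all genes. The median of these copies was -0.00316 with the trend on gene length removed and -0.0410 without knockout replicate 2. The 50 copies of translation factor genes had a median of -0.10 with 29 negative, and -0.0395 and -0.21 without wild type replicates 1 and 2. Copies of proteasome and ubiquitin genes had a median of 0.10 with 24 of 35 positive (0.0437 to 0.19 without 1 library), and those of cytoskeletal genes 0.14 with 8 of 13 positive. The 20 copies of high mobility group and histone genes had a median of 0.12 (0.0366 to 0.21 without 1 library), the 27 of glycolytic genes 0.05 (-0.0921 without wild type replicate 1 and 0.26 without replicate 2), the 22 of chaperones and cyclophilins -0.02 and the 32 of RNA-binding protein genes -0.05. Among the 599 copies of all other genes, those of Rpsa included, 350 were positive, with a median of 0.09, or 0.22 with the length trend removed. Without overlap 160 were higher and 94 lower, where 22.2% and 21.9% of all genes were.

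Single families show how unevenly copies of one gene were listed. Eef1a1, which encodes the factor that brings aminoacyl-tRNA to the ribosome, had 59033 and 53487 counts against 48941 and 56922. Among its 17 copies Gm13456 alone had 3956 and 3980 against 4090 and 4968, or 207 CPM per kb. The other 16 lay between 0.718 and 12.5 CPM per kb. Gapdh, the glycolytic enzyme gene, was at 25.9 CPM per kb and its 13 copies at 0.568 to 1.67.

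Some copies separated libraries of the same genotype far more than the genotypes. Among the 424 members with 50 counts or more in a library, 10 differed 8-fold or more between the replicates of a genotype (2.36%), against 0.859% of 10355 protein-coding genes, with limits chosen after the values were seen. In 4 of the 10 both genotypes split the same way. Gm26983 had 298 and 2 wild type counts and 230 and 3 knockout counts, and Rps15a-ps8 had 535 and 10 against 406 and 6. Rps13-ps1 had 658 and 8 against 415 and 8, and Gm8130, a copy of Rps3, 460 and 43 against 586 and 40. Replicate 1 was thus high and replicate 2 low in both genotypes, while Rps15a itself had 3754 and 3895 against 2932 and 3834. Rps13 had 267 and 304 against 158 and 257, and Rps3 had 36595 and 36355 against 30104 and 35004.

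The parents of these 4 copies, with Rps15a the parent of 2, lie on 1 chromosome although the copies lie on 4. That was noticed after the values were seen, and no rate over other parents was computed. Rps3 is at chr7:99477896-99483738, Rps13 at chr7:116331505-116334195 and Rps15a at chr7:118104372-118116188, while the copies lie on chromosomes 16, 8, 4 and 1. Rps15a-ps6, on chromosome 11, followed the same order at 38 and 6 counts against 41 and 2. Rps15a-ps4, with 1933 and 2281 against 1490 and 2445, did not. Rps13-ps2, with 219 and 367 against 159 and 301, was lower in replicate 1 of both genotypes. Rps15a-ps8 and Gm26983 share 6 bases that differ from the coding sequence of Rps15a. The copies of Ccni, a cyclin gene, ran the other way, with 5 and 28 counts against 1 and 14 for Gm6352 and 5 and 49 against 10 and 67 for Gm8983. They share 6 differences from Ccni, which had 3718 and 4117 counts against 4097 and 4219. These Ccni, Rps15a-ps6 and Rps13-ps2 values were picked after they were seen.

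All 5 copies of Rplp0, a stalk protein gene of the large subunit, were highest in wild type replicate 2, where Rplp0 was lowest. Gm9625 had 856 and 2645 counts against 739 and 829. Gm8730 had 1026 and 1953 against 707 and 786, and Gm14165 had 40 and 118 against 21 and 35. Rplp0-ps1 had 23 and 274 against 25 and 13, and Gm6278 18 and 170 against 6 and 11. Rplp0 had 25157 and 16107 against 20957 and 22363.

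The copies' part of all Rplp0 counts was 24.3% in wild type replicate 2 and 6.67% to 7.24% in the other 3 libraries. The 5 copies lie on 5 chromosomes, and share 3 bases that differ from the Rplp0 coding sequence. The 4 printed above share 7. The log2 fold changes of -3.48 (SE 1.27) for Gm6278, -1.52 (SE 0.61) for Gm14165, -1.19 (SE 0.63) for Gm9625 and -1.03 (SE 0.34) for Gm8730 thus rest in large part on 1 library. Without it they were -1.10, -0.54, -0.16 and -0.49. Without wild type replicate 1 edgeR's quasi-likelihood test called Gm9625 at an adjusted p of 0.0324, with a log2 fold change of -1.80. In that fit replicate 2 is the sole wild type library, and it is assumed to vary like the knockout pair.

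Knockout replicate 2 stood apart in the copies assigned by sequence to Eno1b, annotated as an enolase gene. The alignment gives the closest protein-coding transcript, so Eno1b need not be the gene from which they were copied. Gm5855 had 7 and 7 counts against 11 and 334, and Eno1b 64 and 76 against 85 and 628. The nearly identical copy Gm4735 had 50 and 73 against 66 and 0. The log2 fold change of 4.57 for Gm5855 (SE 1.95, interval -1.22 to 10.4) was 0.61 without that library. Knockout replicate 1 stood apart in Gm10036, a copy of Rpl11, at 525 counts against 53 in its replicate and 60 and 56 in the wild type. Rps4l, a copy of the X-linked Rps4x, had 234 and 860 counts against 44 and 536.

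**Figure D5:**
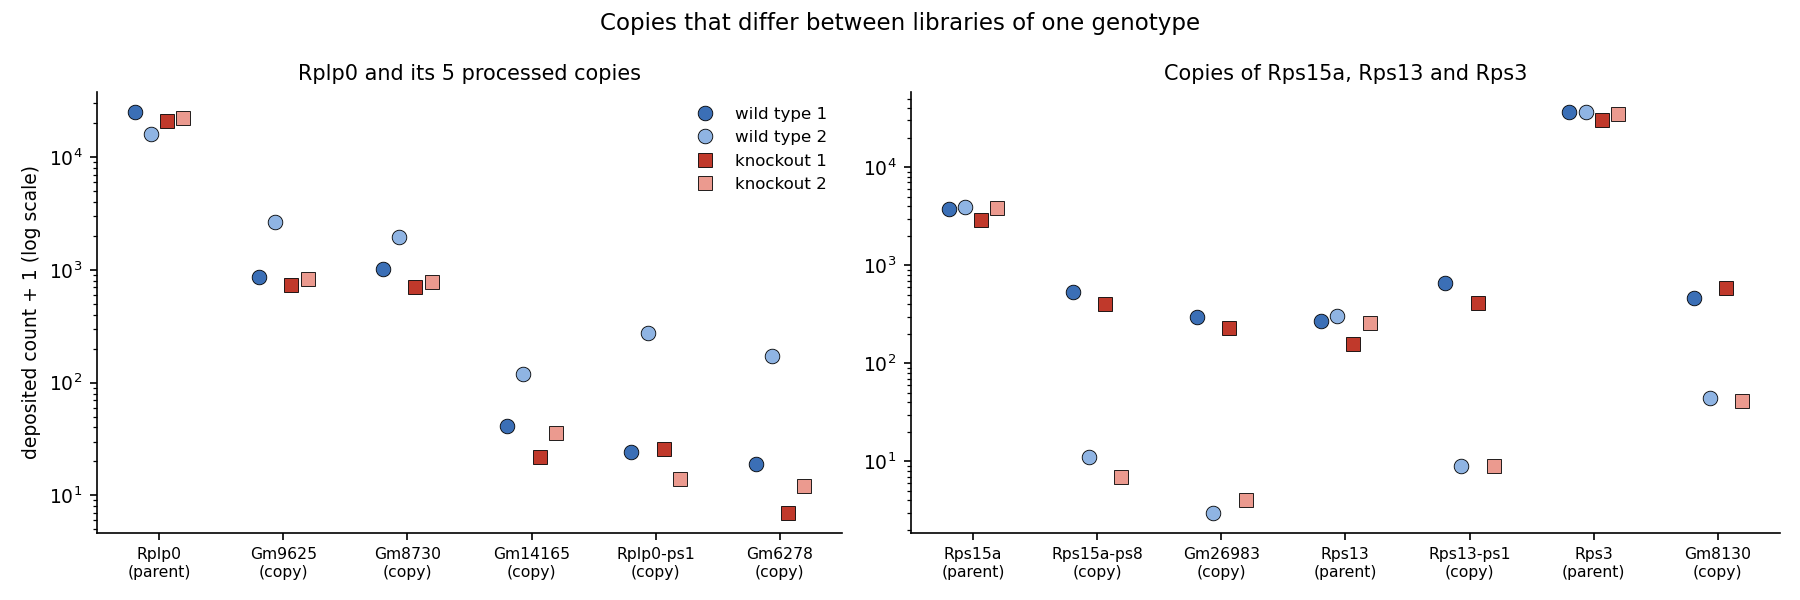
Deposited counts plus 1 (log scale) by library, for Rplp0 with its 5 copies on the left and for Rps15a, Rps13 and Rps3 with 4 of their copies on the right. Wild type replicate 2 is highest in all 5 Rplp0 copies and lowest in Rplp0, and replicate 1 of both genotypes is high in the 4 copies on the right.

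The median level was 2.83 CPM per kb for the 718 members between genes, 3.60 for the 128 in introns on the same strand and 2.87 for the 149 in introns on the opposite strand. Among 60 copies in same-strand introns of listed genes, Spearman's rho of the log2 fold change was 0.10 with the host gene and 0.30 with the parent by sequence. Among 79 in opposite-strand introns it was 0.19 and 0.29. Among 14 copies over an exon on the opposite strand it was 0.53 and 0.0275, a description of few genes. The 52 members typed as transcribed were at a median of 2.05 CPM per kb and the others at 2.99.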

How the data were processed

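Libraries of RNA from sorted fetal liver cells were grouped as 2 wild type and 2 Prl2 knockout samples by their labels. The authors deposited 1 table of whole-number read counts per gene, with a gene length in bp. The submitters' processing notes name the mm10 build and featureCounts, STAR and Bowtie2, with no roles. The sources used here do not give versions, strand setting, read length or the handling of reads with several matches. The authors' log2 values (log2 CPM, log2 RPKM and log2 fold changes) and the p-value and adjusted p-value of their comparison stand in the same deposited table, per the file headers. Those log2 fold changes and p-values were used only where the text names the authors' table. Symbols of 18 genes, turned into dates, were restored from their IDs.

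The main test was run over 13614 genes in R 4.3.3 with edgeR 4.0.16 (TMM factors, robust quasi-likelihood test, Benjamini-Hochberg adjustment over all genes, two-sided). DESeq2 1.42.0, limma-voom 3.58.1, the likelihood ratio test, other size factors, a filter on level, a replicate block and leaving out each library were alternatives. Intervals of log2 fold changes are at 95%, and intervals of shares and the floor of 3 counts cover counting error only. The main test was also run on simulated counts with the same spread for every gene. Genes in these libraries differed in their spread between replicates, so that run does not vouch for the test here. Copies were aligned with blastn 2.17.0 to GENCODE M21 protein-coding transcripts on the plus strand. The best hit was the parent, or an intron-containing gene where its score reached 0.9 of the best. Of the members 1034 were found in GENCODE M21, 1032 with the same start and end. Words of 50 and 100 bases were compared exactly, and all annotated processed pseudogenes, listed or not, were searched for those of the ribosomal protein genes. Positions relative to other genes came from bedtools 2.31.1.

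Members, gene groups and the rule for named genes were chosen with earlier results of these data known. That rule took the copy of Ptp4a2, the 10 members highest per kb, the 10 most abundant pairs by name, up to 8 higher and 8 lower members by size of log2 fold change at a mean log2 CPM of 1 or more without overlap of the genotypes, members called or listed by the authors' table, and the 5 highest and 5 lowest pairs by name in copy minus parent. Some items it named are not reported here. Genes outside it are said to be chosen after their values were seen, or belong to the family of a named copy. Same-numbered replicates did not deviate together: the correlation of their deviations over 11620 genes was -0.15.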

Additional observations from a re-analysis of the deposited data

How the results depend on the processing

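The number of members called was 0 by the quasi-likelihood test, by limma-voom, with relative log expression factors, with the filter on level, with the replicate block and with the crossed pairing of replicates, against 6 by DESeq2 and 6 by the likelihood ratio test, and leaving out a library gave 0 to 1. The crossed pairing was added because the replicate deviations correlated at -0.15 between genotypes. The median log2 fold change of all members was -0.02, and -0.0296 with the filter, -0.02 to -0.01 without 1 library and 0.11 with the trend on gene length removed, which turns its sign. The median of copy minus parent was 0.06, and 0.06 with the replicate block, 0.0848 by sequence, 0.18 with the length trend removed, and 0.0514 to 0.113 without 1 library. The median log2 ratio of copy to parent was -1.74, and -4.03 without division by length, -2.81 by sequence, -1.32 with the filter, and -1.79 to -1.72 without 1 library. The difference in the members' share of counts was -0.0600 percentage points, -0.0530 for the exact type alone, and -0.0674 to -0.0525 without 1 library. Leaving out 1 library turned the sign of 8 of the 43 named copies, with ranges of -0.54 to 0.19 for Rps15a-ps4, -0.27 to 0.0117 for Tpt1-ps3, -0.0212 to 0.16 for Impdh2-ps, -0.0443 to 0.39 for Gm6421, -0.23 to 0.21 for Cd63-ps, -0.16 to 0.12 for Anp32b-ps1, -0.17 to 0.49 for Rpsa-ps8 and -0.39 to 0.28 for Gstm2-ps1, and the replicate block gave -0.00679 for Cd63-ps. Summing copies with the parent, an alternative added after seeing the data, turned Rplp0 from 0.0415 to -0.0867. The cause of these shifts was not tested, and the low counts of most members limit their precision.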
